A study of Mus musculus with 39 samples.

Results

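Livers that lack BMAL1 in hepatocytes were compared with livers that lack HIF1a in hepatocytes, both in mice breathing 21% oxygen, at each of the study's circadian times. The first genotype was Alb-Cre+ Bmal1fl/fl (BLKO) and the second was Alb-Cre+ Hif1afl/fl (HLKO), and both carried the Cre transgene. Each was sampled at CT4 and at CT16, where CT is circadian time, after 4 h at 21% oxygen in a window of CT4 to CT8 or CT16 to CT20. With 3 libraries per genotype and time this gave 12 libraries, of 36 with counts in the series. All 9483 genes that passed the filter on low counts, of 11873 in the table, were compared. Alb-Cre mice with intact alleles (Alb) at the same times and oxygen gave 6 further libraries, whose levels are printed for orientation and were not tested here. All mice were C57BL/6 aged 3 to 5 months, kept in a 12 h light and 12 h dark cycle for 2 weeks with food freely available, and the lights stayed off on the day of sampling. The albumin promoter drives Cre in hepatocytes, and whether all other cells of the liver kept both genes was not checked here. The labels do not say whether libraries of a group came from separate animals, and p-values then measure only the spread between these libraries.

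BMAL1, encoded by Arntl, pairs with CLOCK or NPAS2 and switches on genes with E-boxes, among them the repressors of the Per, Cry and Rev-erb families, which feed back on it with a daily rhythm. REV-ERBa and REV-ERBb, encoded by Nr1d1 and Nr1d2, repress Arntl, Npas2, Cry1 and Nfil3 through ROR elements. HIF1a belongs to the same bHLH-PAS protein family as BMAL1, is degraded when oxygen is plentiful, and on low oxygen induces genes of glycolysis and vessel growth through a core motif that lies inside the E-box. In the liver the clock also times lipid, sterol and glucose metabolism. The samples allow a direct question: in which genes, and at which time, do livers without one of these related factors differ from livers without the other?

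The promoters below show the letters through which clock factors are known to act, for clock genes whose levels are described next. RefSeq promoter windows of GRCm38.p6, from 250 bases before to 50 after each start, were searched on both strands for the E-box CACGTG, for the extended ROR element TAGGTCA and for the D-box TTATGTAA. The hypoxia core ACGTG was searched too, and every E-box contains it. Capitals mark the matches. In the sense of transcription, Ciart (chr3:95882255-95882356, minus strand) has 3 E-boxes, which begin at -116, -58 and -44 relative to its start, and Cry1 (chr10:85185097-85185126, minus) has 1. Per3 (chr4:151044804-151044882, minus) has 2 D-boxes. Arntl (chr7:113207530-113207558, plus) holds a ROR element just after its start, and Nfil3 (chr13:52981034-52981062, minus) holds one on the other strand.
Ciart: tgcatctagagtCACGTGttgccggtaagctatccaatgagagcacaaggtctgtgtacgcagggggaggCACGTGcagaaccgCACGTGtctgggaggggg
Cry1: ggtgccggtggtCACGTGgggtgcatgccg
Per3: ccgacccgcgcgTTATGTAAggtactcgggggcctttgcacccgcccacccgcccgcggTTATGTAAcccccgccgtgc
Arntl: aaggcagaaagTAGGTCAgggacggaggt
Nfil3: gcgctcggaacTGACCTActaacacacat
Of all 32851 windows, 7.15% held the E-box, 19.6% the hypoxia core, 2.61% the extended ROR element and 0.938% the D-box. Of 16 clock genes known to be driven through E-boxes, 12 had a window, and the windows of 4 held the E-box (Ciart, Tef, Per1 and Bhlhe41). Of 6 clock genes known to be repressed by REV-ERB, all had a window and 2 held the extended ROR element, those of Arntl and Nfil3. A match describes the letters of the window only.

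Expression is given as CPM (counts per 1000000), that is, deposited read counts scaled to a common library total after a correction for composition, and values of 3 libraries stand in the order of replicates A, B and C. A fold change is the log2 of BLKO over HLKO with its standard error (SE), so a positive value means higher in BLKO. A gene was called where edgeR's quasi-likelihood test gave a Benjamini-Hochberg adjusted p under 0.05 over all genes tested, and every adjusted p below is of that test. The 12 libraries held 2017236 to 5196957 counts, with 11076 to 11693 genes detected and 16.5% to 20.8% of counts in the 10 most abundant genes. Replicates differed by more than sampling noise in every group, with a chi-square of 3.58 to 13.6 per degree of freedom, so each counts as a separate library. Counts over whole genes do not check the deleted alleles: Hif1a had 5.35 ± 0.703 CPM in BLKO and 5.23 ± 2.38 CPM in HLKO at CT4 (SD, n = 3 each), and 6.04 ± 0.772 CPM in BLKO and 5.50 ± 2.50 CPM in HLKO at CT16; exons outside a deleted part are counted too. In these whole-tissue samples, fewer cells of a type and less RNA per cell cannot be told apart.

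At CT4, 1614 genes were called, or 17% of those tested, with 865 higher in BLKO (9.12%) and 749 lower (7.9%). At CT16, 1170 genes were called, or 12.3%, with 509 higher (5.37%) and 661 lower (6.97%). The median log2 fold change over all genes tested was 0.01 at both times. The difference exceeded 2-fold upward for 354 called genes and downward for 252 at CT4, and upward for 220 and downward for 261 at CT16. BLKO and HLKO libraries did not overlap in 1545 of the 1614 genes called at CT4 and in 1124 of the 1170 called at CT16, where 36.4% and 31.6% of all genes tested had no overlap. When library totals replaced the composition correction, the share of calls that were higher in BLKO moved to 43.4% against 53.6% at CT4 and to 65.3% against 43.5% at CT16, and the median of all genes moved to 0.13 at CT16. The difference itself changed between the times in 393 genes (4.14%), with 132 moving up at CT16 relative to CT4 (1.39%) and 261 moving down (2.75%). The balance of directions over all genes therefore depends on the scaling, and directions below are those relative to the corrected scale.

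The difference changed between the times in some of the clock genes. The test of that change called 4 of 14 tested genes that BMAL1 drives and 3 of 5 that REV-ERB represses. It called 4.14% of all genes. At CT4, 7 of 14 tested genes that BMAL1 drives were lower in BLKO than in HLKO, 1 was higher and 6 did not pass the test, and 4 of 5 genes that REV-ERB represses were higher. At CT16, 2 of the 14 were lower, and of the 5 genes 1 was higher and 2 were lower. Of all genes, 9.12% were higher and 7.9% lower at CT4, and 5.37% were higher and 6.97% lower at CT16. Dbp, a transcription factor of D-boxes and a classical output of the clock, had 9.81, 10.6 and 12.8 CPM in BLKO, against 274, 262 and 338 CPM in HLKO at CT4, where Alb livers had 152 to 200 CPM. Its log2 fold change was -4.69 ± 0.48 (SE, adjusted p = 1.74e-07). At CT16 Dbp had 16.4, 12.5 and 6.93 CPM in BLKO and 9.96, 11 and 12.1 CPM in HLKO, with a log2 fold change of 0.15 ± 0.53 (adjusted p = 0.898). The groups of Dbp values lay far apart at CT4 and overlapped at CT16.

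Nr1d1, the gene of REV-ERBa, had 6.54, 23.3 and 9.54 CPM in BLKO, against 184, 207 and 176 CPM in HLKO at CT4, a log2 fold change of -3.85 ± 0.35 (adjusted p = 1.32e-08). At CT16 it averaged 5.32 ± 2.16 CPM in BLKO and 5.54 ± 0.492 CPM in HLKO (SD, n = 3 each). Nr1d2, the related REV-ERBb gene, was scarce, with 0.409 to 0.895 CPM in BLKO and 3.30 to 4.12 CPM in HLKO at CT4 (log2 fold change -2.51 ± 0.70, adjusted p = 0.0107). Both Rev-erb genes were thus lower in BLKO than in HLKO at CT4, without overlap between the libraries.

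Among the repressors of the clock, Ciart, whose 3 E-boxes are printed above and whose protein blocks the BMAL1 complex, had 0.467, 1.63 and 0.895 CPM in BLKO, against 11.5, 6.34 and 11.2 CPM in HLKO at CT4 (log2 fold change -3.19 ± 0.60, adjusted p = 0.000286). Per3, a period gene, had 1.40, 2.04 and 0.298 CPM in BLKO, against 11, 9.51 and 8.58 CPM in HLKO at CT4 (-3.02 ± 0.45, adjusted p = 6.58e-06). At CT16 neither passed the test: Ciart had a log2 fold change of -1.72 ± 0.62 (adjusted p = 0.0647) and Per3 one of -0.72 ± 0.39 (adjusted p = 0.247). Ciart did pass at CT16 with DESeq2 (adjusted p = 0.0214) and when the model held the 4 compared groups alone (adjusted p = 0.0177). Per2 passed at neither time, with 7.02 ± 0.427 CPM in BLKO and 10.4 ± 5.34 CPM in HLKO at CT4, and 18.6 ± 5.41 CPM in BLKO and 11.4 ± 2.09 CPM in HLKO at CT16. Per1, which glucocorticoids also induce, was close in both genotypes at CT4, at 22.3 ± 1.35 CPM in BLKO and 22.9 ± 4.14 CPM in HLKO. At CT16 Per1 was lower in BLKO, with 19.9, 26.6 and 34.1 CPM against 44.0, 57.9 and 47.0 CPM in HLKO (-0.91 ± 0.23, adjusted p = 0.00682). That Per1 call was lost without BLKO replicate A (adjusted p = 0.0671) and without HLKO replicate B (adjusted p = 0.0528).

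The REV-ERB-repressed genes showed the mirror image at CT4. Npas2, a partner of BMAL1 that can stand in for CLOCK, had 30.8, 16.8 and 18.8 CPM in BLKO, against 0.479, 0.951 and 0 CPM in HLKO (log2 fold change 5.39 ± 0.54, adjusted p = 4.24e-09). Cry1, a cryptochrome repressor, had 74.3, 69.1 and 63.8 CPM in BLKO, against 13.9, 15.8 and 6.93 CPM in HLKO (2.50 ± 0.21, adjusted p = 3.47e-11). Nfil3, a D-box repressor, had 46.2, 52.3 and 35.8 CPM in BLKO, against 12.9, 15.8 and 12.9 CPM in HLKO (1.67 ± 0.24, adjusted p = 4.03e-06). All 3 were higher in BLKO than in every HLKO library of that time.

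Arntl transcripts, counted over the whole gene, moved as Npas2, Cry1 and Nfil3 did at CT4. From which exons the BLKO reads came was not checked. At CT4 Arntl had 6.07, 6.95 and 6.26 CPM in BLKO, against 1.44, 1.90 and 0.990 CPM in HLKO (log2 fold change 2.12 ± 0.46, adjusted p = 0.0011). At CT16 it had 10.5, 11.3 and 13.9 CPM in BLKO, against 22.8, 19.8 and 23.2 CPM in HLKO (-0.89 ± 0.25, adjusted p = 0.0148), a call that was lost without BLKO replicate A (adjusted p = 0.0755), BLKO replicate B (adjusted p = 0.0523) or HLKO replicate C (adjusted p = 0.057). HLKO libraries had more Arntl RNA at CT16 than at CT4, and the order of the genotypes was opposite at the 2 times.

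At CT16 Npas2 was the member of the REV-ERB list that stayed higher in BLKO, with 9.02, 12.2 and 9.81 CPM against 2.07, 2.74 and 0.367 CPM in HLKO (log2 fold change 2.51 ± 0.45, adjusted p = 0.000133). Cry1 was near equal there, at 73.6 ± 6.38 CPM in BLKO and 67.3 ± 12.3 CPM in HLKO (adjusted p = 0.701). Nfil3 was lower in BLKO at CT16, at 33.3 ± 4.18 CPM against 53.0 ± 6.94 CPM in HLKO (-0.66 ± 0.21, adjusted p = 0.029). The Nfil3 call at CT16 was lost without BLKO replicate B or C or HLKO replicate A or B, at adjusted p of 0.0516 to 0.125. Over this list of 5 tested genes, 4 rose and none fell at CT4, where 9.12% of all genes rose. At CT16, 1 rose and 2 fell, where 5.37% of all genes rose and 6.97% fell. The count of 2 that fell was 0 without BLKO replicate B and 1 without any other CT16 library of the comparison.

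Of 14 BMAL1-driven clock genes tested, 7 fell and 1 rose in BLKO at CT4, with a median log2 fold change of -0.82, where 7.9% of all genes fell. Tef, a relative of Dbp, had 71.8 ± 14.6 CPM in BLKO and 142 ± 21.3 CPM in HLKO (-0.98 ± 0.20, adjusted p = 0.000591). Hlf, the remaining factor of that family, had 9.15 ± 3.02 CPM in BLKO and 14.9 ± 1.95 CPM in HLKO (-0.76 ± 0.26, adjusted p = 0.0364). Its call was lost without BLKO replicate C (adjusted p = 0.283), HLKO replicate B (adjusted p = 0.14) or HLKO replicate C (adjusted p = 0.0557). Neither Tef (adjusted p = 0.398) nor Hlf (adjusted p = 0.102) passed the test of a change between the times.

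At CT16, 2 of the 14 fell and none rose, with a median of -0.09, where 6.97% of all genes fell and 5.37% rose. The 2 were Per1, given above, and Usp2. Leaving out BLKO replicate A or HLKO replicate B, which ended the Per1 call, left 1. The count of 2 was 3 with DESeq2 and 4 when the model held the 4 compared groups alone. Usp2, a rhythmic ubiquitin protease, had 30.9, 26.9 and 33.5 CPM in BLKO, against 102, 91.4 and 98.1 CPM in HLKO (log2 fold change -1.67 ± 0.41, adjusted p = 0.00666). Its Alb level was 35.3 to 55.4 CPM, so the HLKO libraries lay above the Alb libraries as well as above BLKO.

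**Figure D1:**
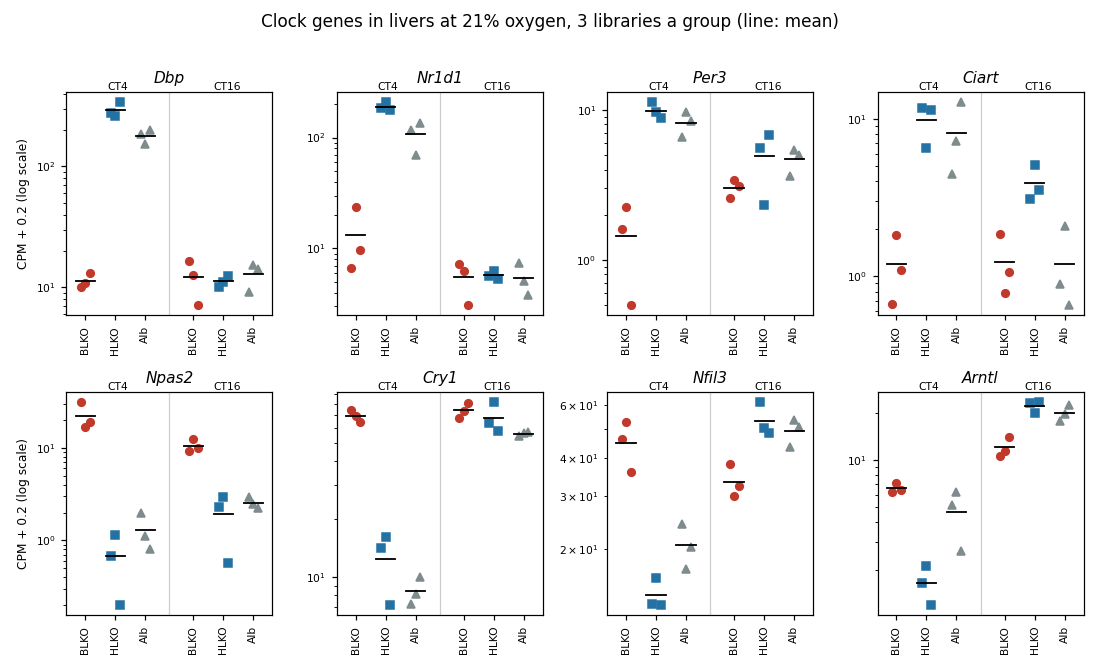
Each panel plots 1 clock gene: the y axis is CPM plus 0.2 on a log scale, and the x axis holds BLKO, HLKO and Alb libraries at CT4 and then at CT16, with 3 points a group and a line at the mean. Dbp, Nr1d1, Per3 and Ciart lie low in BLKO and high in HLKO at CT4, Npas2, Cry1, Nfil3 and Arntl lie the other way round there, and at CT16 the genotypes come closer for most panels.

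Beyond the clock, some genes were higher in BLKO at CT4 and lower in BLKO at CT16, among them members of the list of glucocorticoid targets. Cdkn1a, the cell cycle inhibitor p21, had 214, 193 and 209 CPM in BLKO, against 11.5, 11.4 and 8.25 CPM in HLKO at CT4 (log2 fold change 4.31 ± 0.20, adjusted p = 8.19e-19). At CT16 Cdkn1a had 108, 114 and 115 CPM in BLKO, against 170, 202 and 190 CPM in HLKO (-0.74 ± 0.16, adjusted p = 0.000975). Alb livers had 10.4 to 12.5 CPM at CT4 and 35.4 to 56.5 CPM at CT16. BLKO thus lay above HLKO and Alb at CT4, and HLKO lay above BLKO and Alb at CT16.

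Igfbp1, a secreted binder of insulin-like growth factors that rises in fasting, had 519, 251 and 309 CPM in BLKO, against 80.0, 63.7 and 60.7 CPM in HLKO at CT4 (log2 fold change 2.4 ± 0.40, adjusted p = 0.000153). At CT16 it had 138, 75.9 and 89.5 CPM in BLKO, against 969, 644 and 884 CPM in HLKO (-3.03 ± 0.40, adjusted p = 9.76e-06). Pdk4, the kinase that shuts pyruvate dehydrogenase in fasting, had 34.6, 13.9 and 17.6 CPM in BLKO, against 1.92, 2.53 and 3.63 CPM in HLKO at CT4 (2.94 ± 0.80, adjusted p = 0.012). The Pdk4 call at CT4 was lost without BLKO replicate A (adjusted p = 0.0641) or HLKO replicate B (adjusted p = 0.0507). At CT16 Pdk4 had 8.47, 6.08 and 6.93 CPM in BLKO, against 54.8, 90.5 and 28.7 CPM in HLKO (-3.00 ± 0.58, adjusted p = 0.000813). The groups of both genes were apart at either time and in opposite order.

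Angptl4, an inhibitor of lipoprotein lipase, was called at CT16, where it had 114, 166 and 156 CPM in BLKO, against 694, 660 and 699 CPM in HLKO (log2 fold change -2.24 ± 0.28, adjusted p = 4.56e-06). At CT4 it had 273 ± 23.6 CPM in BLKO and 194 ± 55.6 CPM in HLKO (adjusted p = 0.235), and the difference between the times was itself called (-2.73 ± 0.39, adjusted p = 7.69e-05). Mt1, a metal-binding metallothionein, had 3276, 3292 and 999 CPM in BLKO, against 1174, 271 and 261 CPM in HLKO at CT4 (2.15 ± 0.65, adjusted p = 0.0237). At CT16 Mt1 had 78.4, 79.0 and 52.8 CPM in BLKO, against 472, 523 and 730 CPM in HLKO (-3.03 ± 0.68, adjusted p = 0.00369). At CT4 the libraries of Mt1 overlapped, and the call was lost without BLKO replicate A or B or HLKO replicate B or C, at adjusted p of 0.0686 to 0.11, and when the model held the 4 compared groups alone (adjusted p = 0.0606). Its neighbour Mt2 moved alike, with log2 fold changes of 2.35 ± 0.74 at CT4 (adjusted p = 0.0303) and -3.24 ± 0.79 at CT16 (adjusted p = 0.00673), and its CT4 call was lost without the same libraries; in the fit on 4 groups neither call held (adjusted p = 0.0966 at CT4 and 0.0511 at CT16).

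Genes of glucose production from amino acids followed that crossing at a smaller size. Tat, tyrosine aminotransferase, had 1460, 1314 and 877 CPM in BLKO, against 894, 569 and 692 CPM in HLKO at CT4 (log2 fold change 0.76 ± 0.18, adjusted p = 0.00344). At CT16 Tat had 1805, 2260 and 2367 CPM in BLKO, against 3665, 3419 and 4679 CPM in HLKO (-0.87 ± 0.18, adjusted p = 0.00094). Pck1, the entry enzyme of gluconeogenesis, had 3018 ± 366 CPM in BLKO and 1914 ± 77.4 CPM in HLKO at CT4 (0.66 ± 0.16, adjusted p = 0.00429), and 2571 ± 157 CPM in BLKO and 4750 ± 569 CPM in HLKO at CT16 (-0.89 ± 0.16, adjusted p = 0.000192). Got1, cytosolic aspartate aminotransferase, had 636 ± 93.7 CPM in BLKO and 248 ± 31.2 CPM in HLKO at CT4 (1.36 ± 0.19, adjusted p = 3.96e-06). At CT16 Got1 had 531 ± 98.2 CPM in BLKO and 753 ± 86.6 CPM in HLKO, which missed the threshold (adjusted p = 0.0693). In the list of gluconeogenesis and amino acid use, with 22 genes tested, 10 rose and 1 fell in BLKO at CT4 (median log2 fold change 0.40), where 9.12% of all genes rose and 7.9% fell. At CT16, 1 rose and 6 fell (median -0.37), where 5.37% of all genes rose and 6.97% fell, so the share that rose lay near that of all genes. The gene that fell at CT4 was Pcx, whose call was lost without any single BLKO library and without HLKO replicate A or B of that time.

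Of 15 glucocorticoid targets tested, 8 rose and none fell in BLKO at CT4 (median log2 fold change 0.95), where 9.12% of all genes rose. At CT16, 1 rose and 8 fell (median -0.74), where 6.97% of all genes fell. The count of 8 at CT4 was 4 without BLKO replicate A, 5 without BLKO replicate B, 4 without HLKO replicate B and 5 without HLKO replicate C. Fkbp5, a chaperone partner of the glucocorticoid receptor, was near equal at CT4, at 59.5 ± 4.76 CPM in BLKO and 61.0 ± 15.6 CPM in HLKO (adjusted p = 0.925). At CT16 Fkbp5 had 44.0, 31.0 and 60.9 CPM in BLKO, against 133, 186 and 127 CPM in HLKO (-1.72 ± 0.22, adjusted p = 1.61e-06). Sgk1, a kinase of salt handling that glucocorticoids induce, was higher in BLKO at both times. It had 19.1, 39.2 and 16.4 CPM in BLKO, against 9.58, 6.65 and 7.59 CPM in HLKO at CT4 (1.66 ± 0.35, adjusted p = 0.00112), and 60.6, 96.1 and 71.3 CPM in BLKO, against 20.3, 24.4 and 28.7 CPM in HLKO at CT16 (1.62 ± 0.27, adjusted p = 9.25e-05).

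**Figure D2:**
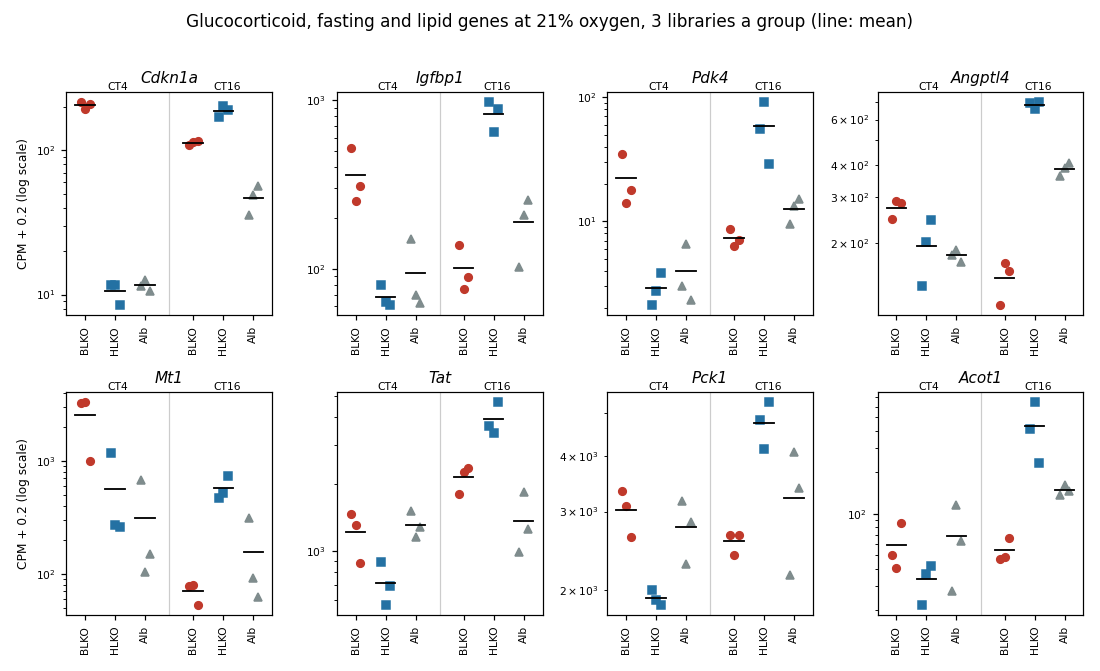
Panels plot glucocorticoid, fasting and lipid genes as CPM plus 0.2 on a log y axis, with BLKO, HLKO and Alb libraries at CT4 and CT16 on the x axis, 3 points a group and a line at the mean. Cdkn1a, Igfbp1, Pdk4, Mt1, Tat and Pck1 have BLKO means above HLKO at CT4 and below HLKO at CT16, and Acot1 and Angptl4 part mainly at CT16.

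Most genes on a list of fatty acid oxidation, ketogenesis and targets of the receptor PPARa were lower in BLKO at CT16. Of the 34 tested, 23 fell and none rose in BLKO, where 6.97% of all genes fell. The median log2 fold change was -0.64. The count was 16 when library totals were used for scaling, and 16 to 23 when 1 library was left out. It is a count of the whole list and not of oxidation enzymes alone. Acot1, a cytosolic acyl-CoA thioesterase, had 46.6, 48.6 and 67.0 CPM in BLKO, against 412, 644 and 235 CPM in HLKO at CT16 (-3.00 ± 0.48, adjusted p = 0.000113). Its peroxisomal relative Acot3 had 2.02, 0 and 0.866 CPM in BLKO, against 58.1, 132 and 16.9 CPM in HLKO (-5.92 ± 0.80, adjusted p = 1.14e-05). In HLKO, replicate B was the highest and replicate C the lowest library for both genes, yet each HLKO library lay above all BLKO libraries.

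Ppara, the nuclear receptor that induces these genes, had 100 ± 6.00 CPM in BLKO and 182 ± 8.75 CPM in HLKO at CT16 (log2 fold change -0.87 ± 0.20, adjusted p = 0.00328). Ehhadh, a bifunctional enzyme of fatty acid oxidation in peroxisomes, had 183, 178 and 164 CPM in BLKO, against 399, 502 and 245 CPM in HLKO (-1.13 ± 0.23, adjusted p = 0.000927). Both the receptor and this enzyme were thus lower in BLKO at CT16.

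At CT4 this list was mixed: 8 rose and 3 fell of 34, with a median of 0.07, where 9.12% of all genes rose and 7.9% fell. Ehhadh was higher in BLKO there, with 197, 168 and 222 CPM against 120, 88.4 and 110 CPM in HLKO (0.89 ± 0.23, adjusted p = 0.00824), and its call was lost without HLKO replicate B (adjusted p = 0.0558). Cyp4a10, a fatty acid omega-hydroxylase, had 75.2, 54.8 and 306 CPM in BLKO, against 8.62, 8.87 and 20.1 CPM in HLKO (3.52 ± 1.05, adjusted p = 0.022). Its call was lost without BLKO replicate C (adjusted p = 0.174), HLKO replicate A (adjusted p = 0.0761) or HLKO replicate B (adjusted p = 0.0867). The list's count of 8 fell to 4 without BLKO replicate C, 5 without HLKO replicate A and 2 without HLKO replicate B, so the count at CT4 rests on those libraries.

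Fatty acid synthesis genes differed in whether they kept their direction from CT4 to CT16. Thrsp, a lipogenic regulator, had 333, 440 and 272 CPM in BLKO, against 1261, 1152 and 1697 CPM in HLKO at CT4 (log2 fold change -1.98 ± 0.25, adjusted p = 1.98e-06), and 473 ± 80.6 CPM in BLKO and 1084 ± 143 CPM in HLKO at CT16 (-1.2 ± 0.24, adjusted p = 0.001). Mlxipl, the gene of the carbohydrate-sensing factor ChREBP, had 134 ± 31.9 CPM in BLKO and 319 ± 20.9 CPM in HLKO at CT4 (-1.25 ± 0.13, adjusted p = 1.53e-08), and 153 ± 7.64 CPM in BLKO and 252 ± 29.4 CPM in HLKO at CT16 (-0.72 ± 0.13, adjusted p = 0.000181). Pklr, liver pyruvate kinase and a ChREBP target, was lower in BLKO at both times as well (-1.27 ± 0.27 at CT4, adjusted p = 0.00176, and -1.82 ± 0.27 at CT16, adjusted p = 3.5e-05). These 3 genes kept their direction at both times.

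Srebf1, the gene of the insulin-responsive factor SREBP1, turned instead. It had 79.4, 79.7 and 103 CPM in BLKO, against 227, 171 and 162 CPM in HLKO at CT4 (log2 fold change -1.09 ± 0.24, adjusted p = 0.00215), and 157, 152 and 163 CPM in BLKO, against 66.8, 92.9 and 96.3 CPM in HLKO at CT16 (0.88 ± 0.24, adjusted p = 0.0135). The CT16 call was lost without HLKO replicate A (adjusted p = 0.0803). Acacb, the acetyl-CoA carboxylase of mitochondria, was lower in BLKO at CT16, with 35.0, 25.8 and 15.3 CPM against 89.2, 86.8 and 118 CPM in HLKO (-1.92 ± 0.29, adjusted p = 3.6e-05). Of the 19 tested genes on the fatty acid synthesis list, 1 rose and 6 fell at CT4 (median -0.22), where 9.12% of all genes rose and 7.9% fell. At CT16, 3 rose and 7 fell (median -0.43), where 5.37% of all genes rose and 6.97% fell.

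Cholesterol synthesis held genes that were higher in BLKO at both times. Of 24 genes tested, 12 rose and 1 fell at CT4 (median log2 fold change 0.76), and 8 rose and none fell at CT16 (median 0.47), where 9.12% and 5.37% of all genes rose; the CT16 count was 14 when the model held the 4 compared groups alone. Hmgcs1, which makes HMG-CoA in the cytosol, had 845, 739 and 713 CPM in BLKO, against 333, 301 and 343 CPM in HLKO at CT4 (1.23 ± 0.24, adjusted p = 0.000708). At CT16 it had 524, 619 and 581 CPM in BLKO, against 240, 233 and 276 CPM in HLKO (1.2 ± 0.24, adjusted p = 0.00106). Alb livers had 706 to 997 CPM at CT4 and 431 to 501 CPM at CT16, so that HLKO lay below both other genotypes for Hmgcs1.

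Msmo1, a sterol oxidase late in the pathway, had 105, 105 and 109 CPM in BLKO, against 33.5, 21.5 and 26.1 CPM in HLKO at CT4 (log2 fold change 1.99 ± 0.37, adjusted p = 0.000529), and 91.1 ± 10.4 CPM in BLKO and 22.0 ± 1.31 CPM in HLKO at CT16 (2.04 ± 0.38, adjusted p = 0.000495). Sqle, squalene epoxidase, was higher in BLKO by 1.33 ± 0.33 at CT4 (adjusted p = 0.00591) and by 1.80 ± 0.34 at CT16 (adjusted p = 0.000498). Nsdhl, a sterol dehydrogenase, was higher by 1.22 ± 0.22 at CT4 (adjusted p = 0.000229) and by 1.29 ± 0.23 at CT16 (adjusted p = 0.000157). The sizes at CT4 and CT16 were close for Hmgcs1, Msmo1, Sqle and Nsdhl. The gene that fell at CT4 was Stard4, a carrier of cholesterol rather than a synthetic enzyme, at 50.1 ± 5.16 CPM in BLKO and 86.6 ± 12.3 CPM in HLKO (-0.79 ± 0.16, adjusted p = 0.000387).

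Genes known as targets of HIF did not move as a group. Epas1, the gene of the sister factor HIF2a, passed at neither time, with 151 ± 5.78 CPM in BLKO and 139 ± 16.6 CPM in HLKO at CT4, and 128 ± 0.879 CPM in BLKO and 163 ± 25.1 CPM in HLKO at CT16 (adjusted p = 0.0539). Of 25 targets tested, 4 rose and 4 fell in BLKO at CT4 (median log2 fold change 0.36), where 9.12% of all genes rose and 7.9% fell. At CT16, 2 rose and 3 fell (median -0.06), near the 5.37% and 6.97% of all genes, and the count of 2 was 1 without HLKO replicate B or C. Ndrg1, a stress-responsive gene that hypoxia induces, was higher in BLKO at both times and by less at CT16. It had 74.3, 56.0 and 58.8 CPM in BLKO, against 6.70, 7.92 and 6.93 CPM in HLKO at CT4 (3.11 ± 0.24, adjusted p = 3.08e-12). At CT16 Ndrg1 had 37.9, 40.2 and 38.1 CPM in BLKO, against 9.96, 15.5 and 14.3 CPM in HLKO (1.53 ± 0.21, adjusted p = 3.57e-06), and the change of -1.59 between the times was itself called (adjusted p = 0.00214). Its HLKO levels lay near the Alb levels of 5.18 to 7.06 CPM at CT4 and 8.43 to 11 CPM at CT16.

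Vegfa, the vessel growth factor, was lower in BLKO at CT4, with 77.1, 78.5 and 85.6 CPM against 133, 126 and 143 CPM in HLKO (log2 fold change -0.74 ± 0.22, adjusted p = 0.019), and the call was lost without BLKO replicate A (adjusted p = 0.0673), BLKO replicate B (adjusted p = 0.0548) or HLKO replicate C (adjusted p = 0.0601). At CT16 Vegfa had 89.0 ± 10.8 CPM in BLKO and 98.3 ± 7.51 CPM in HLKO (adjusted p = 0.732). The other HIF targets called at CT4 were Ddit4, Igfbp1 and Insig2, which rose, and Ankrd37, P4ha2 and Trf, which fell; at CT16 Egln3 rose, and Ddit4, Igfbp1 and Angptl4 fell. The calls of Ddit4, Ankrd37 and Egln3 were lost when some single libraries were left out. Insig2, a brake on SREBP processing, had 292, 253 and 305 CPM in BLKO, against 63.2, 131 and 66.0 CPM in HLKO at CT4 (1.7 ± 0.21, adjusted p = 6.92e-07). Members of the list were thus found on either side at either time.

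Glycolysis had calls on both sides too, with 2 of 15 genes higher and 3 lower in BLKO at CT4, and 1 higher and 3 lower at CT16. Of all genes, 9.12% were higher and 7.9% lower at CT4, and 5.37% higher and 6.97% lower at CT16, so the counts of higher glycolysis genes lay near those shares. Leaving out single libraries lowered the 4 counts to as few as 1, 1, 0 and 1. The median log2 fold change of the list was 0.04 at CT4 and -0.38 at CT16. At CT16, 12 of the 15 had a negative value and 3 a positive one. The count of 3 lower at CT16 was 5 with DESeq2, 5 with the 4 compared groups alone and 1 with library totals. Gpi1, glucose-6-phosphate isomerase, was lower in BLKO at both times, at 116 ± 1.04 CPM against 175 ± 14.2 CPM in HLKO at CT4 (log2 fold change -0.60 ± 0.16, adjusted p = 0.0072), and at 135 ± 18.3 CPM against 225 ± 45.7 CPM in HLKO at CT16 (-0.73 ± 0.15, adjusted p = 0.00097). Ldha, lactate dehydrogenase A, was higher in BLKO at CT4, at 1142 ± 127 CPM against 720 ± 24.4 CPM in HLKO (0.66 ± 0.17, adjusted p = 0.00558). At CT16 Ldha was higher by 0.54 ± 0.17 (adjusted p = 0.03), and that call was lost without BLKO replicate A or B or HLKO replicate B or C, at adjusted p of 0.0697 to 0.178. Pgam1 rose at CT4, Eno1 and Pfkfb3 fell at CT4, and Slc2a1 and Gapdh fell at CT16. All 5 lost their calls when some single libraries were left out, at adjusted p of 0.0548 for Pfkfb3 without BLKO replicate C, for example. Gapdh ranged from 110 to 604 CPM over the HLKO libraries at CT16 and from 17.7 to 23.7 CPM over the BLKO libraries, while at CT4 both groups spread widely, from 17.3 to 322 CPM in BLKO and from 32 to 838 CPM in HLKO.

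Glutathione transferases of the mu class gave a difference of steady size. Gstm3 had 439, 412 and 386 CPM in BLKO, against 59.9, 48.2 and 65.3 CPM in HLKO at CT4 (log2 fold change 2.84 ± 0.38, adjusted p = 7.96e-06), and 979, 513 and 606 CPM in BLKO, against 68.0, 39.3 and 101 CPM in HLKO at CT16 (3.34 ± 0.38, adjusted p = 1.14e-06). Gstm2 was higher in BLKO by 2.29 ± 0.21 at CT4 (adjusted p = 1.01e-08) and by 2.12 ± 0.21 at CT16 (adjusted p = 3.57e-08), and Gstm6 by 1.95 ± 0.24 (adjusted p = 2.01e-06) and 1.7 ± 0.24 (adjusted p = 1.51e-05). These paralogs are alike in sequence, and how the authors' counting shared reads between them is not known, so their values are not independent. The Alb levels of Gstm3 were 36.7 to 85.6 CPM at CT4 and 53.8 to 67.0 CPM at CT16, within or near the HLKO range. Of 16 targets of the oxidant sensor NRF2 tested, 6 rose and 2 fell at CT4, where 9.12% of all genes rose and 7.9% fell. At CT16, 8 rose and 1 fell, where 5.37% rose and 6.97% fell. The genes that rose at both times include the paralogs Gstm1, Gstm2, Gstm3 and Gstm6, so these counts are not of independent genes. Mgst3, a membrane-bound glutathione transferase, fell at both times (-1.07 ± 0.33 at CT4, adjusted p = 0.0235, and -1.48 ± 0.28 at CT16, adjusted p = 0.000385), with Gclm the other gene that fell at CT4. The CT4 call of Mgst3 was lost without BLKO replicate A (adjusted p = 0.111), BLKO replicate B (adjusted p = 0.0516) or HLKO replicate B (adjusted p = 0.0821).

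**Figure D3:**
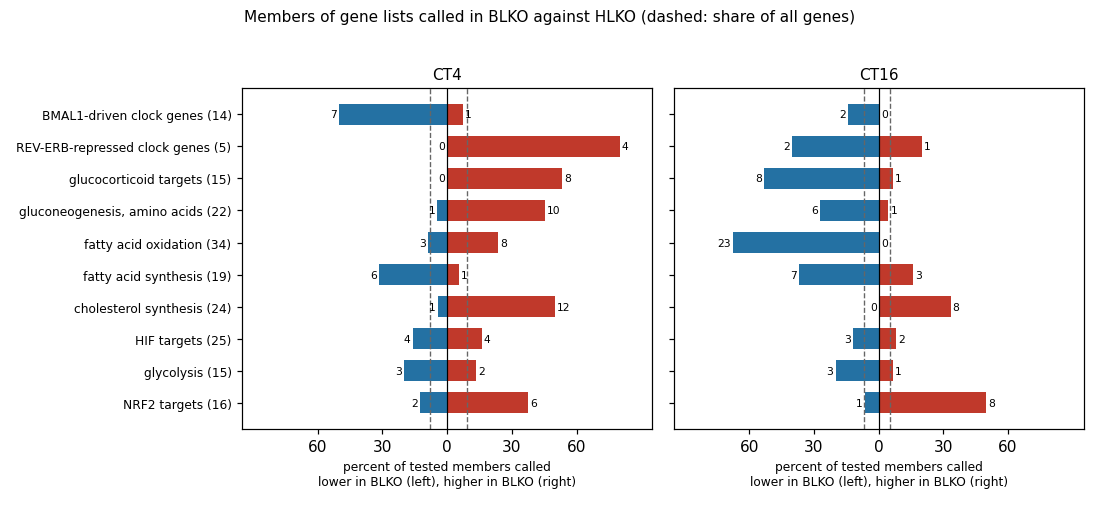
Bars give the percent of tested members of each list that were called lower (left, blue) and higher (right, red) in BLKO than in HLKO, at CT4 and at CT16, with the count at the bar's end, the number tested beside the name, and dashed lines at the share of all genes. Glucocorticoid targets and gluconeogenesis genes lean right at CT4 and left at CT16, and cholesterol synthesis leans right at both times. The list labelled fatty acid oxidation, which also holds ketogenesis genes and PPARa targets, has 23 members lower at CT16.

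The detoxifying cytochromes P450 were mixed: of 30 tested, 7 rose and 4 fell at CT4, and 3 rose and 7 fell at CT16. The shares of all genes were 9.12% higher and 7.9% lower at CT4, and 5.37% higher and 6.97% lower at CT16. Cyp2c55 had 54.6, 43.7 and 76.7 CPM in BLKO, against 10.5, 6.97 and 7.59 CPM in HLKO at CT4 (log2 fold change 2.84 ± 0.47, adjusted p = 0.000135), and 53.9, 57.0 and 63.2 CPM in BLKO, against 9.96, 9.14 and 6.61 CPM in HLKO at CT16 (2.75 ± 0.46, adjusted p = 0.000156). Cyp2a5, which oxidises coumarin, was lower in BLKO at CT16, with 153, 87.7 and 105 CPM against 970, 871 and 704 CPM in HLKO (-2.87 ± 0.40, adjusted p = 2.14e-05). At CT4 Cyp2a5 had 112 ± 36.7 CPM in BLKO and 178 ± 34.4 CPM in HLKO (adjusted p = 0.26). Ahr, the receptor for aromatic compounds, had 16.0 ± 3.58 CPM in BLKO and 2.10 ± 0.610 CPM in HLKO at CT4 (2.87 ± 0.39, adjusted p = 1.71e-06), and 13.4 ± 4.96 CPM in BLKO and 2.71 ± 0.960 CPM in HLKO at CT16 (2.29 ± 0.38, adjusted p = 3.5e-05). Its Alb mean was 11.6 CPM at CT4 and 9.30 CPM at CT16, so that the HLKO libraries were lower than those of the other genotypes.

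Of 23 genes known to be higher in male than in female mouse liver under growth hormone, 7 rose and 5 fell at CT4, where 9.12% of all genes rose and 7.9% fell, and 8 rose and 3 fell at CT16, where 5.37% rose and 6.97% fell. The count of 8 was 5 without HLKO replicate B or C of that time. Of 7 genes known to be higher in female liver, none was called at CT4, and at CT16 none rose and 4 fell, a count of 2 without HLKO replicate B; the 4 were Acot3, Acot4, Cyp2a4 and Fmo2. Elovl3, a fatty acid elongase that the clock also times, had 1932, 1839 and 1726 CPM in BLKO, against 533, 676 and 400 CPM in HLKO at CT4 (log2 fold change 1.77 ± 0.21, adjusted p = 6.92e-07). At CT16 its libraries overlapped, with 1217, 2261 and 1912 CPM in BLKO, against 1049, 993 and 1237 CPM in HLKO. Hsd3b5, a male-specific steroid dehydrogenase, was close at CT4, at 287 ± 43.2 CPM in BLKO and 270 ± 70.4 CPM in HLKO, and had 202, 375 and 338 CPM in BLKO, against 101, 46.9 and 58.4 CPM in HLKO at CT16 (2.16 ± 0.25, adjusted p = 7.83e-07). Cyp7b1, an oxysterol hydroxylase of the alternative bile acid pathway, was higher in BLKO at both times (1.46 ± 0.38 at CT4, adjusted p = 0.00845, and 2.15 ± 0.39 at CT16, adjusted p = 0.000408), and its CT4 call was lost without HLKO replicate A (adjusted p = 0.0559). Other genes of the male list were lower in BLKO at both times. They include Cyp4a12a (-1.87 ± 0.32 at CT4, adjusted p = 0.000188, and -1.88 ± 0.32 at CT16, adjusted p = 0.000181). Mup21 fell too (-1.60 ± 0.38 at CT4, adjusted p = 0.005, and -1.14 ± 0.38 at CT16, adjusted p = 0.0486).

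A set of genes differed in 1 direction at CT4 and CT16 alike, by sizes that were not always equal. The 2 comparisons share no library, and 450 genes, or 4.75% of those tested, were called the same way in both: 227 were higher and 223 lower in BLKO. They made up 27.9% of the genes called at CT4 and 38.5% of those called at CT16, and a further 36 were called in opposite directions, 27 of them higher at CT4 and lower at CT16. In mice given 6% oxygen, whose libraries are separate, 271 of the 450 were called the same way at CT4, 378 at CT16, and 244 in all 4 comparisons, with none called the opposite way. Among all 9483 genes tested, 990 were called at 6% oxygen at CT4 and 2109 at CT16. The 1614 genes called at CT4 in 21% oxygen included 498 called the same way at 6% and 9 called the opposite way. For the 1170 called at CT16 these counts were 707 and 11.

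**Figure D4:**
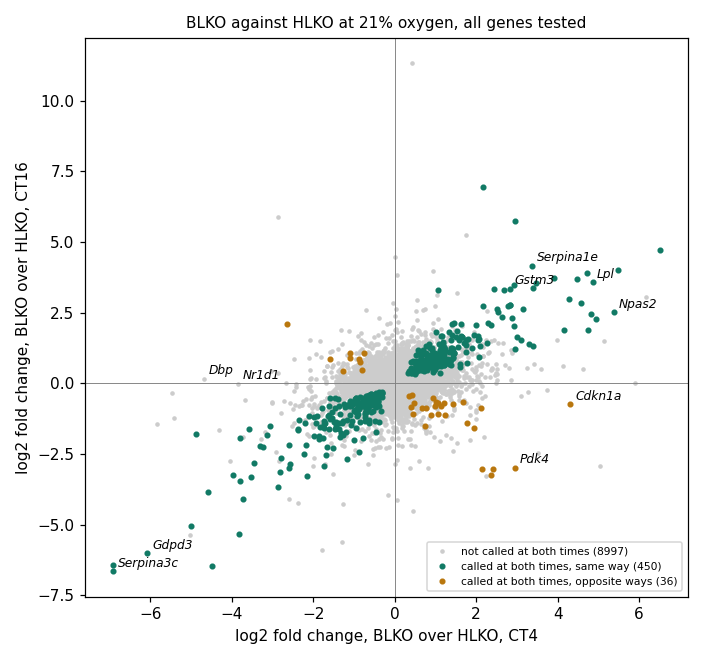
Each point is 1 of the genes tested, placed by its log2 fold change of BLKO over HLKO at CT4 (x axis) and at CT16 (y axis). The 450 genes called the same way at both times run along the diagonal and are led by Serpina3c and Gdpd3 at the low end, and the 36 called in opposite ways include Cdkn1a and Pdk4 at the lower right; Dbp and Nr1d1 lie near zero on the y axis.

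Serpina3c, a serine protease inhibitor, had 4.67, 5.72 and 3.88 CPM in BLKO, against 533, 683 and 482 CPM in HLKO at CT4 (log2 fold change -6.91 ± 0.46, adjusted p = 8.83e-11), and 3.87, 7.82 and 1.44 CPM in BLKO, against 567, 493 and 257 CPM in HLKO at CT16 (-6.66 ± 0.44, adjusted p = 1.08e-10). Alb livers had 4.27 to 10.4 CPM, so that the HLKO libraries were the high ones. Its neighbour Serpina3h had 0.934, 0.818 and 0 CPM in BLKO, against 13.4, 18.1 and 20.8 CPM in HLKO at CT4 (-5.01 ± 0.53, adjusted p = 1.47e-08), and was lower by the same measure at CT16 (-5.05 ± 0.58, adjusted p = 7.79e-08). Serpina1e, which encodes an isoform of alpha-1-antitrypsin, ran the other way, with 12845, 13205 and 9909 CPM in BLKO, against 1242, 994 and 1219 CPM in HLKO at CT4 (3.38 ± 0.46, adjusted p = 1.15e-05), and 18139, 14746 and 12440 CPM in BLKO, against 1062, 602 and 892 CPM in HLKO at CT16 (4.15 ± 0.48, adjusted p = 1.43e-06). Alb livers had 9721 to 18306 CPM of Serpina1e at CT4, which overlaps BLKO. Serpina genes are close paralogs, and reads could be shared between them. Of 16 Serpina genes of the chromosome 12 cluster tested, 6 rose and 4 fell at CT4, where 9.12% of all genes rose and 7.9% fell, and 3 rose and 5 fell at CT16, where 5.37% rose and 6.97% fell. The count of 3 was 7 with library totals, 6 when the model held the 4 compared groups alone and 5 without BLKO replicate B, so which direction is the more frequent at CT16 depends on the scaling and the model.

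Gdpd3, a lysophospholipase D, had 0.467, 0 and 1.49 CPM in BLKO, against 34.5, 50.1 and 72.9 CPM in HLKO at CT4 (log2 fold change -6.07 ± 0.83, adjusted p = 1.17e-05), and 1.47, 0.579 and 1.44 CPM in BLKO, against 30.3, 65.5 and 146 CPM in HLKO at CT16 (-6.02 ± 0.68, adjusted p = 1.12e-06). Rad51b, a homologous recombination factor, had 1.40, 0.818 and 0.298 CPM in BLKO, against 23.5, 12.7 and 18.1 CPM in HLKO at CT4 (-4.48 ± 0.43, adjusted p = 2.05e-09), and 1.66, 1.45 and 0.866 CPM in BLKO, against 111, 137 and 123 CPM in HLKO at CT16 (-6.46 ± 0.30, adjusted p = 1.27e-18). Both genes were far below the HLKO level in Alb livers too, at 0.228 to 3.88 CPM for Gdpd3 and 2.13 to 7.86 CPM for Rad51b. Rgs16, a regulator of G protein signalling, had 4.00 ± 0.232 CPM in BLKO and 57.3 ± 7.76 CPM in HLKO at CT4 (-3.82 ± 0.82, adjusted p = 0.00205), and 2.50 ± 0.443 CPM in BLKO and 103 ± 64.8 CPM in HLKO at CT16 (-5.35 ± 0.80, adjusted p = 4.56e-05). Abhd1, a member of the alpha/beta hydrolase fold family, had 4.84 ± 1.01 CPM in BLKO and 118 ± 14.8 CPM in HLKO at CT4 (-4.58 ± 0.59, adjusted p = 5.42e-06). AI506816 had no counts in any of the 6 BLKO libraries and 2.07 to 5.61 CPM in the HLKO libraries; DESeq2 gave it an adjusted p of 0.106 at CT4 and 0.118 at CT16.

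Other differences seen at both times had BLKO as the high group. Tox2, an HMG-box factor, had 21.5, 16.8 and 15.8 CPM in BLKO, against 0.958, 0.317 and 0 CPM in HLKO at CT4 (log2 fold change 5.47 ± 0.54, adjusted p = 3.94e-09), and 9.20, 5.50 and 9.53 CPM in BLKO, against 0, 0.914 and 0.367 CPM in HLKO at CT16 (4.00 ± 0.56, adjusted p = 3.21e-06). Lpl, lipoprotein lipase, which adult hepatocytes express at low levels, had 14.5, 15.1 and 15.5 CPM in BLKO, against 0.479, 0.634 and 0.330 CPM in HLKO at CT4 (4.86 ± 0.67, adjusted p = 3.05e-06), and 12.9, 13.9 and 12.4 CPM in BLKO, against 0, 2.44 and 0.367 CPM in HLKO at CT16 (3.58 ± 0.57, adjusted p = 3.11e-05). Grk5, a kinase of G protein-coupled receptors, had 19.1, 21.3 and 21.2 CPM in BLKO, against 1.44, 1.27 and 2.97 CPM in HLKO at CT4 (3.39 ± 0.37, adjusted p = 2.44e-08), and differed by 3.37 ± 0.33 at CT16 (adjusted p = 1.23e-09). For Tox2, Lpl and Grk5 the Alb libraries lay at 0 to 3.37 CPM, close to HLKO.

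Mug2, a murinoglobulin protease inhibitor, was far lower in HLKO at CT4, with 619, 605 and 581 CPM in BLKO, against 22, 16.8 and 13.2 CPM in HLKO (log2 fold change 5.14 ± 0.64, adjusted p = 3.42e-06). At CT16 Mug2 had 547, 602 and 567 CPM in BLKO, against 391, 175 and 37.5 CPM in HLKO, and missed the threshold (adjusted p = 0.0569). Alb livers had 264 to 343 CPM, between BLKO and the CT4 HLKO libraries.

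Slc34a2, a sodium phosphate transporter, had 26.2, 32.3 and 29.8 CPM in BLKO, against 0.958, 0.317 and 1.98 CPM in HLKO at CT4 (log2 fold change 4.71 ± 0.68, adjusted p = 1.6e-05), and 2.39, 15.9 and 22.8 CPM in BLKO, against 0.830, 1.52 and 0 CPM in HLKO at CT16 (3.91 ± 0.77, adjusted p = 0.0008). BLKO replicate A at CT16 was the library nearest to HLKO. Selenbp2, a selenium-binding protein, had 1404 ± 215 CPM in BLKO and 93.2 ± 5.39 CPM in HLKO at CT4 (3.91 ± 0.84, adjusted p = 0.002), and 1531 ± 252 CPM in BLKO and 116 ± 95.4 CPM in HLKO at CT16 (3.72 ± 0.83, adjusted p = 0.00337). Alb livers varied from 229 to 1489 CPM, between those groups or within BLKO. Slx1b, an endonuclease subunit, had 2.8 to 4.18 CPM in BLKO and no counts in HLKO at CT4, where Alb livers had 2.82 to 4.27 CPM.

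**Figure D5:**
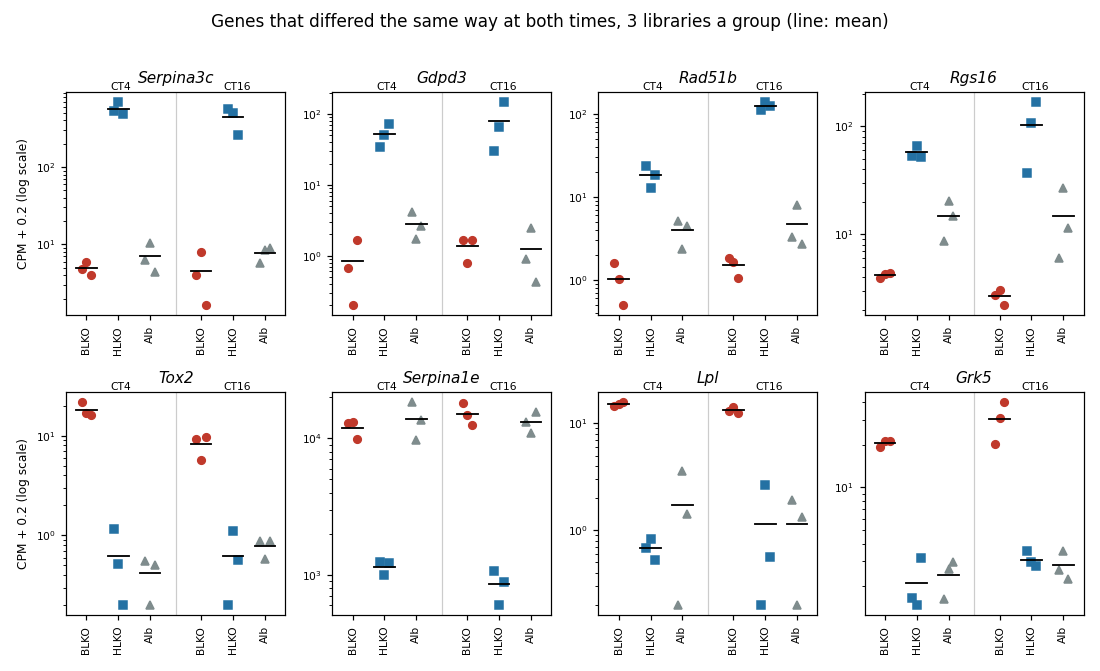
Panels plot genes called the same way at both times as CPM plus 0.2 on a log y axis, with BLKO, HLKO and Alb libraries at CT4 and CT16 on the x axis, 3 points a group and a line at the mean. Serpina3c, Gdpd3, Rad51b and Rgs16 are low in BLKO and high in HLKO at both times, Tox2, Lpl and Grk5 are high in BLKO, and Serpina1e is low in HLKO alone among the 3 genotypes.

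Several of the genes called the same way at both times lie on the chromosomes of the floxed alleles. Hif1a is at chr12:73901375-73947530 and Arntl at chr7:113207465-113314126 (GRCm38.p6). Rad51b is at chr12:79297282-79814690, Serpina3c at chr12:104146382-104153870 and Serpina1e at chr12:103946931-103958975, while Gdpd3 is at chr7:126766334-126775649 and Slx1b at chr7:126689468-126695784. Of the 439 such genes with a position, chromosome 12 held 26 (5.92%), against 331 of 9342 tested (3.54%), and chromosome 7 held 34 (7.74%), against 715 tested (7.65%). Chromosome 5, which carries neither floxed allele, held 43 (9.79%), against 610 tested (6.53%). Within 20 Mb of Arntl lay 17 of them (3.87%), against 221 tested (2.37%), and within 10 Mb lay 6 (1.37%), against 76 tested (0.814%). Within 20 Mb of Hif1a lay 6 (1.37%), against 140 tested (1.5%). All 6 of these lay within 10 Mb of Hif1a, against 74 tested there (0.792%). Others, such as Tox2 on chromosome 2 and Rgs16 on chromosome 1, lie elsewhere. What part position has in these differences was not tested.

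Markers of cell types were compared beside these results. Summed CPM of 20 hepatocyte genes was 96340 to 103184 in BLKO and 122824 to 138107 in HLKO at CT4, and 99893 to 111692 in BLKO and 135091 to 154005 in HLKO at CT16, so the sum was lower in BLKO at both times without overlap. Alb, the serum albumin gene, carried much of that sum, at 24201 ± 3701 CPM in BLKO and 40646 ± 5990 CPM in HLKO at CT4 (log2 fold change -0.75 ± 0.13, adjusted p = 0.000101). As single genes the markers did not move as a group: of the 20 tested, 3 rose and 3 fell at CT4 (median log2 fold change -0.28), where 9.12% of all genes rose and 7.9% fell. At CT16 none rose and 4 fell (median -0.07), where 6.97% of all genes fell, and the count of 4 was 2 without BLKO replicate A or HLKO replicate A. Cebpa, a factor of hepatocyte identity, had 302, 374 and 426 CPM in BLKO, against 868, 875 and 819 CPM in HLKO at CT4 (-1.22 ± 0.15, adjusted p = 1.74e-07), and 468 ± 34.4 CPM in BLKO and 442 ± 81.2 CPM in HLKO at CT16 (adjusted p = 0.776).

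Sums over 20 Kupffer cell genes were 380 to 461 CPM in BLKO and 365 to 538 CPM in HLKO at CT4, and 332 to 590 CPM in BLKO and 395 to 483 CPM in HLKO at CT16. No Kupffer gene and no stellate cell gene was called at either time. Sums over 21 endothelial genes were 399.7 to 444.6 CPM in BLKO and 366.9 to 396.5 CPM in HLKO at CT4, without overlap, and 384.2 to 505 CPM in BLKO and 451.6 to 531.7 CPM in HLKO at CT16, with overlap. Of the 21, 18 had a positive log2 fold change at CT4 and 16 a negative one at CT16; Bmp2 rose at CT4 and Sparc fell at both times, and no other was called. Bile duct markers summed to 79.9 to 137 CPM in BLKO and 55.5 to 60.7 CPM in HLKO at CT4, and the groups overlapped at CT16. Of the 4 tested, Sox9 and Spp1 rose at CT4, where 9.12% of all genes rose, and the other 2 had negative log2 fold changes. The count of 2 was 1 without BLKO replicate A. Spp1 carried much of the BLKO sums, with 99.5, 87.1 and 42.9 CPM in BLKO, against 25.4, 26.9 and 33.3 CPM in HLKO. Sox9 had 14.7 ± 3.08 CPM in BLKO and 4.93 ± 0.710 CPM in HLKO (log2 fold change 1.57 ± 0.33, adjusted p = 0.000818). Of 12 neutrophil markers, 5 were in the deposited data. They summed to 39.7 to 191 CPM in BLKO and 15.8 to 19.5 CPM in HLKO at CT4, and BLKO replicate A was the highest of these. The Alb libraries spanned 6.09 to 506 CPM at CT4. Only 2 of the neutrophil markers were tested, and none was called at either time. The deposited data held 4 of 10 red cell markers. These red cell markers summed to 165 to 189 CPM in BLKO and 97.9 to 120 CPM in HLKO at CT4, and overlapped at CT16. Alas2 carried much of the CT4 sums, with 137, 150 and 148 CPM in BLKO, against 69.4, 64.0 and 69.6 CPM in HLKO. All 4 were tested and 2 rose at CT4, where 9.12% of all genes rose. That count was as low as 1 when 1 library was left out. Of 12 pancreas markers, 3 were in the deposited data. They summed to 205 to 242 CPM in BLKO and 108 to 128 CPM in HLKO at CT4. At CT16 they summed to 142 to 233 CPM in BLKO and 83.8 to 87.9 CPM in HLKO. Nearly all of each sum was Cela1, with 203, 202 and 241 CPM in BLKO, against 123, 106 and 125 CPM in HLKO at CT4. Of the 2 tested, Cela1 was called at both times, and the other had a negative log2 fold change at both and was not called. The neutrophil marker Ngp was at 0 in both genotypes at CT4. The part of these cell types in the gene differences was not tested.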

How the data were processed

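RNA of whole livers was sequenced. The deposited table gives read counts per gene for 36 libraries, and a normalized signal beside them that equals the counts divided by 1 factor a library and was not used in the tests. The tools STAR 2.4.2a, cutadapt, DESeq2 and HTSeq, with the build mm10, are listed in the submitters' processing notes; how reads shared by paralogs were counted and whether strand was used are not given in the sources used here. 3 samples were not analysed here.

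Counts were fitted with edgeR 4.0.16 (R 4.3.3; quasi-likelihood, TMM scaling, filterByExpr with a minimum count of 10) over all 36 libraries as 12 groups of 3, with Benjamini-Hochberg adjustment over the 9483 genes of each comparison. The script was tested on simulated data. CPM use library totals (2017236 to 5196957 counts in the 12 libraries compared) scaled by TMM; an SE is the log2 fold change over the root of the F statistic. Alternatives were DESeq2 1.42.0, other scalings, no filter, the 4 compared groups alone, a replicate block, a threshold of 0.01 and leaving out each library. Replicate letters did not pair the libraries. Named genes were a fixed set of clock and target genes, leading members of each list, and genes called at both times. Called genes with the highest and lowest fold changes at 5 CPM or more without overlap were named too. Ehhadh, Tef, Hlf, Sgk1, Ppara, Nsdhl, Gstm1, Insig2, P4ha2, Pcx, Gclm, Cyp4a12a and Mup21 were added after their values were seen. Members and lists were chosen with earlier results of these data known. Some genes are counted in lists but not reported here.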

Additional observations from a re-analysis of the deposited data

Results flagged for a closer look

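The difference between BLKO and HLKO itself differed between CT16 and CT4 in 393 genes, or 4.14% of those tested (edgeR quasi-likelihood test of the CT16 log2 fold change minus the CT4 one, Benjamini-Hochberg adjusted). A negative value means that BLKO stood lower against HLKO at CT16 than at CT4.

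Among clock genes the change was 4.84 for Dbp (adjusted p = 0.000113), 3.83 for Nr1d1 (adjusted p = 0.000178), 2.31 for Per3 (adjusted p = 0.0242), -3.01 for Arntl (adjusted p = 0.000234), -2.38 for Cry1 (adjusted p = 1.62e-07) and -2.33 for Nfil3 (adjusted p = 6.78e-06). The Per3 value missed the threshold without BLKO CT4 replicate C, BLKO CT16 replicate B or HLKO CT16 replicate B.

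For glucocorticoid, fasting and hypoxia genes it was -5.05 for Cdkn1a (adjusted p = 1.57e-17), -5.19 for Mt1 (adjusted p = 0.00124), -5.59 for Mt2 (adjusted p = 0.00243), -5.94 for Pdk4 (adjusted p = 0.000392), -5.44 for Igfbp1 (adjusted p = 7.51e-07), -2.73 for Angptl4 (adjusted p = 7.69e-05), -1.63 for Tat (adjusted p = 8.96e-05), -1.54 for Pck1 (adjusted p = 3.5e-05), -1.86 for Got1 (adjusted p = 2.38e-05), -1.67 for Fkbp5 (adjusted p = 0.0011), -1.59 for Ndrg1 (adjusted p = 0.00214) and -4.96 for Ppp1r3g (adjusted p = 0.0224).

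Among lipid genes it was -7.95 for Cyp4a14 (adjusted p = 0.0225), -6.00 for Cyp4a10 (adjusted p = 0.011), -3.81 for Acot1 (adjusted p = 0.00124), -2.02 for Ehhadh (adjusted p = 0.000209), -1.85 for Acacb (adjusted p = 0.00746), 1.97 for Srebf1 (adjusted p = 0.000527), 2.95 for Mid1ip1 (adjusted p = 0.00574) and 1.26 for Stard4 (adjusted p = 0.000348). The Cyp4a10 value missed the threshold without BLKO CT4 replicate C (adjusted p = 0.0575), and the Cyp4a14 value without BLKO CT4 replicate C (adjusted p = 0.133), HLKO CT4 replicate A or C, BLKO CT16 replicate B or HLKO CT16 replicate B (adjusted p of 0.0551 to 0.0762).

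Other genes with such a change had differences of 5.12 for Clec2h (adjusted p = 0.0474), 4.76 for Ihh (adjusted p = 0.000142), 4.46 for E030030I06Rik (adjusted p = 0.00242), 3.61 for Serpina9 (adjusted p = 0.0108), 3.46 for Klhdc7a (adjusted p = 0.0211), 3.34 for Nrep (adjusted p = 7.18e-05), 2.07 for Hsd3b5 (adjusted p = 0.000287), 1.42 for Xbp1 (adjusted p = 0.00574), 1.30 for Cebpa (adjusted p = 8.59e-05) and -3.62 for Mug2 (adjusted p = 0.00714). The Clec2h value missed the threshold without most of the single libraries, the Serpina9 value without HLKO CT16 replicate B (adjusted p = 0.0509), the Klhdc7a value without BLKO CT4 replicate A, BLKO CT16 replicate B or HLKO CT16 replicate B or C (adjusted p of 0.0522 to 0.0884), the Ppp1r3g value without BLKO CT4 replicate A (adjusted p = 0.132), HLKO CT4 replicate C (adjusted p = 0.0562) or BLKO CT16 replicate B (adjusted p = 0.0508), and the Mug2 value in a model of the 4 compared groups (adjusted p = 0.076).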

How the results depend on the processing

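At an adjusted threshold of 0.01 the calls numbered 818 at CT4, 635 at CT16, 163 for the change between times and 206 the same way at both times. Leaving out 1 library gave 1056 to 1624 calls at CT4, lowest without BLKO CT4 replicate A, 807 to 1151 at CT16, 255 to 351 for the change between times, with 261 without HLKO CT4 replicate C and 255 without HLKO CT16 replicate B, and 309 to 377 at both times. Library totals in place of TMM gave 687 higher and 895 lower at CT4, 837 and 445 at CT16, and 271 and 147 for the change between times, against 132 and 261 with TMM, and moved the median of all genes for that change to 0.15. The other alternatives kept all 4 counts within 1.5 times. Same-letter correlations of -0.099 to 0.0171 did not pair the libraries, and the replicate block gave 1611, 1136, 375 and 438 calls. Of the values of single genes under the alternatives, 6069 kept direction and side of the threshold, 549 lost the call, 9 gained it and 0 reversed. With 3 libraries a group, small differences in genes of a few CPM were not detectable at this depth.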
